A study of Mus musculus with 9 samples.

Results

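Globin, heme and red cell genes were followed in RNA-seq libraries of sorted mouse HSCs. The set held 9 of the 56748 genes in the count table, chosen by gene symbol: the alpha globins Hba-a1 and Hba-a2, the adult beta globins Hbb-bs and Hbb-bt, Alas2, Slc4a1, Ermap, Car1 and Car2. The HSCs came from bone marrow of female C57BL/6 mice and formed 3 groups with 3 biological replicates each (n = 3). Young HSCs (yHSCs) were from mice of 6 to 10 weeks, and pre-aged HSCs (paHSCs) from mice of 14 to 16 months were sorted into a Selp_low and a Selp_high fraction by the surface level of P-selectin, the adhesion protein encoded by Selp. All groups were gated as Lin-Sca1+c-Kit+CD48-CD150+ cells after lysis of red blood cells, and no allele or treatment separated them. The number of animals or cells behind each library is not given in the sources used here.

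Hemoglobin, the oxygen carrier of red cells, is built from paired alpha and beta globin chains that each hold a heme group. During erythroid differentiation ALAS2 starts heme synthesis in the mitochondrion, the globin genes come to dominate the transcriptome, and proteins of the red cell surface such as the anion exchanger band 3 accumulate. In bone marrow these genes are known as marks of erythroblasts, whereas CAR2 is also made in osteoclasts and other cells. In bulk libraries a smaller number of cells that express a gene and less RNA per cell cannot be told apart.

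The libraries held between 24866975 and 35375310 counts. Levels were expressed as CPM, counts scaled to library size with TMM factors, which were 0.545 and 0.785 for Selp_low replicates 2 and 3 and between 1.05 and 1.22 elsewhere. In these 2 libraries the 10 most abundant genes took 44.8% and 20.95% of the counts, against 3.90% to 12.5% in the others. Of the lists of cell type markers, 10 HSC genes summed to between 818.9 and 3121 CPM, 10 neutrophil genes to between 546.6 CPM (Selp_low replicate 2) and 213200 CPM (Selp_low replicate 3), and 9 B and plasma cell genes to between 83.4 CPM (Selp_low replicate 3) and 105700 CPM (Selp_low replicate 2). Megakaryocyte and platelet genes summed to between 117 and 6916 CPM, monocyte and macrophage genes to between 193.8 and 2296 CPM, and mast cell, basophil and eosinophil genes to between 13.6 and 1292 CPM. The part of these other cells in the values below was not tested. The log2 fold changes of the 9 genes were also computed with each library left out, unlike the correlations and the related lists.

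All 9 genes were detected in every library, with the lowest count, 44, for Slc4a1 in Selp_low replicate 2 and the highest, 116037, for Car2 in Selp_high replicate 1. Together they took 0.129% to 0.682% of a library's counts. Per length, as FPKM (CPM per kilobase of the gene length in the authors' table), the median over the 9 libraries was highest for Car2 at 739.9, followed by Hba-a1 at 430.4, Hbb-bs at 215, Car1 at 159, Hbb-bt at 66.6 and Hba-a2 at 56.7. Alas2, Slc4a1 and Ermap lay far lower, at medians of 8.68, 4.25 and 4.12 FPKM. Neighbours in this order overlapped in their ranges over the libraries, since a single gene varied widely: the highest library exceeded the lowest 34.5-fold for Car1, 22.0-fold for Hba-a2, 20.3-fold for Slc4a1, 19.4-fold for Hbb-bs, 16.8-fold for Alas2, 15.3-fold for Hba-a1, 11.5-fold for Ermap and 9.11-fold for Hbb-bt. Car2 was the steadiest, with a 3.41-fold range. The SD of its log2 CPM, 0.584, was below the median of 0.858 over 22594 genes, and those of the other 8 genes, from 0.992 to 1.70, were above it.

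**Figure D1:**
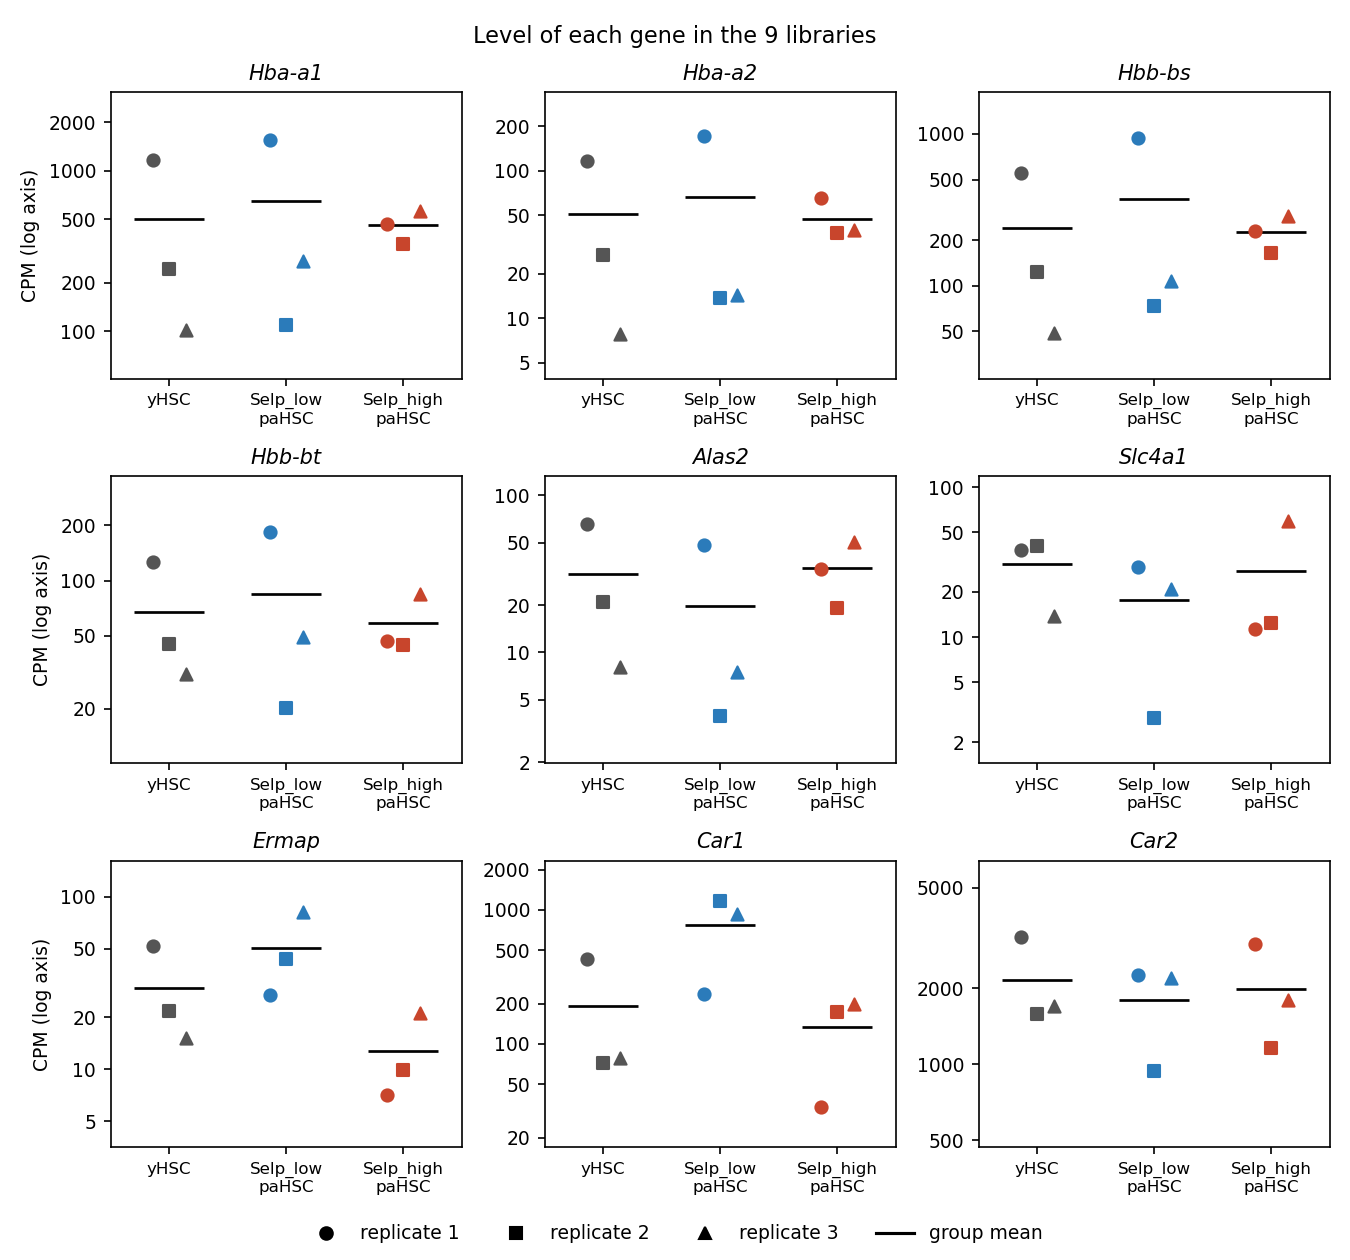
CPM of each gene (vertical axis, log scale, a different range in each panel) in the 3 yHSC, 3 Selp_low paHSC and 3 Selp_high paHSC libraries, 1 point per library with the shape giving its replicate number and the line giving the group mean. For Car1 and Ermap every Selp_low library lies above every Selp_high library (the fractions did not overlap for 20.9% of all genes tested), whereas for the globins replicate 1 of the yHSCs and of the Selp_low paHSCs lies far above the other libraries of its group.

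The globins differed more between replicates than between groups. Hba-a1, which encodes an alpha chain (chr11:32233511-32234465, plus strand, in the authors' table), measured 1158, 243 and 101.2 CPM in the yHSC replicates 1 to 3, 1546, 109.6 and 274 CPM in the Selp_low paHSCs, and 463, 349.5 and 558 CPM in the Selp_high paHSCs. Hbb-bs, which encodes a beta chain (chr7:103475741-103477303, minus strand), followed with 553, 123 and 48.8 CPM in yHSCs, 945, 73.5 and 107 CPM in Selp_low paHSCs, and 228, 165 and 289.6 CPM in Selp_high paHSCs. Replicate 1 of the yHSCs and replicate 1 of the Selp_low paHSCs were thus the highest of the 9 libraries for both chains, and the Selp_high libraries lay between these and the rest. The Selp_high libraries also spread least, 1.60-fold from lowest to highest for Hba-a1, compared with 11.4-fold in yHSCs and 14.1-fold in Selp_low paHSCs.

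For the remaining copies, as for Hba-a1 and Hbb-bs, the group mean was highest in Selp_low and lowest in Selp_high paHSCs. The Selp_low means rested on replicate 1, and the group medians did not follow this order. Hba-a2 (chr11:32246489-32247298) measured 117, 26.7 and 7.77 CPM in yHSCs, 171, 13.6 and 14.2 CPM in Selp_low paHSCs, and 64.9, 37.8 and 39.4 CPM in Selp_high paHSCs. For Hbb-bt (chr7:103461731-103463203) the values were 127, 44.9 and 31.1 CPM in yHSCs, 185, 20.3 and 49.0 CPM in Selp_low paHSCs, and 46.8, 44.8 and 84.5 CPM in Selp_high paHSCs. The ranges of the 3 groups overlapped for both genes. These copies cannot be counted apart with certainty. In the reference transcripts the coding sequences of Hba-a1 and Hba-a2 differed at 1 of 429 bases and those of Hbb-bs and Hbb-bt at 1 of 444 bases, so reads from the shared stretches depend on how the counting treated reads that map to more than 1 place, which is not given in the sources used here.

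Within a library the balance of chains was steadier than the level. The ratio of alpha to beta counts stayed between 1.31 and 1.92 in the 9 libraries, although the share of counts taken by the 4 globins ran from 0.0118% in Selp_low replicate 2 to 0.309% in Selp_low replicate 1. Hba-a1 gave 87.7% to 95.07% of the alpha counts and Hbb-bs 61.1% to 83.6% of the beta counts. The lowest Hbb-bs share was in yHSC replicate 3 and the next, 68.6%, in Selp_low replicate 3.

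Alas2 and Slc4a1 also overlapped between all groups. Alas2, the erythroid enzyme for the first step of heme synthesis (chrX:149330371-149353634), measured 66.2, 20.9 and 8.09 CPM in yHSCs, 48.1, 3.95 and 7.53 CPM in Selp_low paHSCs, and 33.98, 19.1 and 50.5 CPM in Selp_high paHSCs. Slc4a1, which encodes band 3 (chr11:102239650-102257029), measured 38.1, 40.4 and 13.7 CPM in yHSCs, 29.3, 2.90 and 20.8 CPM in Selp_low paHSCs, and 11.2, 12.5 and 58.9 CPM in Selp_high paHSCs. Selp_low replicate 2 was the lowest library for both genes, with counts of 60 and 44. The highest library differed, being yHSC replicate 1 for Alas2 and Selp_high replicate 3 for Slc4a1.

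The comparison of the paHSC fractions asks which genes differ with the surface level of P-selectin at the same age. Car1 and Ermap were lower in every Selp_high than in every Selp_low library, by 5.78-fold and 3.98-fold, in a comparison where the fractions did not overlap for 20.9% of the 20370 genes tested. Scaled by library totals alone, in place of TMM factors, the ratios of the group means were 3.59 for Car1 and 2.79 for Ermap, still without overlap. Neither passed the threshold of edgeR (adjusted p = 0.338 for both), and by DESeq2, the tool of the study, Car1 passed it (adjusted p = 0.0386) and Ermap narrowly missed it (adjusted p = 0.0505). The 4 globins, Alas2, Slc4a1 and Car2 overlapped between the fractions and passed neither test.

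Car1 encodes a cytosolic carbonic anhydrase that is abundant in red cells (chr3:14831276-14873428). It measured 236, 1167 and 926 CPM in Selp_low replicates 1 to 3 and 33.9, 172.5 and 198 CPM in Selp_high replicates 1 to 3, with means of 776 ± 483 and 135 ± 88.4 CPM (SD, n = 3). The lowest Selp_low library lay only slightly above the highest Selp_high library. The log2 fold change in Selp_high over Selp_low paHSCs was -2.53 (standard error 0.816, 95% confidence interval -4.46 to -0.60, unadjusted p = 0.0173 by edgeR's quasi-likelihood test). In yHSCs Car1 measured 429, 72.3 and 78.3 CPM, a range that overlapped both fractions.

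Ermap encodes a membrane adhesion protein of erythroid cells with an immunoglobulin domain (chr4:119032654-119047208). It measured 26.8, 43.9 and 81.2 CPM in Selp_low paHSCs and 7.05, 9.88 and 21.3 CPM in Selp_high paHSCs, with means of 50.6 ± 27.8 and 12.8 ± 7.56 CPM (SD, n = 3). The log2 fold change was -1.99 (standard error 0.567, 95% confidence interval -3.33 to -0.65, unadjusted p = 0.00983 by edgeR). The yHSC libraries lay at 52.0, 21.8 and 15.3 CPM, between the fractions and overlapping both. These 2 of 9 genes are a share near that of all genes, and 3 libraries against 3 cannot give an exact permutation p below 0.1.

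No gene of the set was a DEG by edgeR (adjusted p of 0.05 or less and absolute log2 fold change of at least 1) between the fractions, where 0% of all genes tested were called (0 of 20370, with 2555 at an unadjusted p under 0.05, Car1 and Ermap among them). DESeq2 called 2.28% of all genes (589 of 25807) and 1 of these 9, Car1. Libraries with the same replicate number in the 2 fractions correlated weakly over all genes, but the labels do not say whether they share mice. With this number as a block DESeq2 called both Car1 (adjusted p = 1.73e-18) and Ermap (adjusted p = 1.47e-09). By contrast, edgeR with the block gave adjusted p values of 0.0678 and 0.0719. Of all genes, DESeq2 with the block called 2151 of 22765 and edgeR with the block 9 of 20370. With Selp_low replicates 2 and 3 both left out, the log2 fold changes shrank to -0.81 for Car1 and -1.07 for Ermap.

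Both genes were higher in the Selp_low library of every same-numbered pair. Car1 was 6.98-, 6.77- and 4.67-fold higher in Selp_low than in Selp_high replicates 1, 2 and 3, and Ermap 3.80-, 4.44- and 3.81-fold higher. By library totals alone the ratios were 6.93, 3.09 and 3.49 for Car1 and 3.78, 2.03 and 2.84 for Ermap, so their evenness depended on the TMM factors. The globins behaved otherwise. Hba-a1 was 3.34-fold higher in Selp_low replicate 1 than in Selp_high replicate 1, but in replicates 2 and 3 the Selp_high library was the higher one, by 3.19-fold and 2.04-fold. Hba-a2, Hbb-bs, Hbb-bt, Alas2 and Slc4a1 showed this same split between replicate 1 and the other 2 numbers, with ratios of Selp_low to Selp_high of 1.415 to 4.14 in replicate 1 and 0.149 to 0.580 in replicates 2 and 3.

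**Figure D2:**
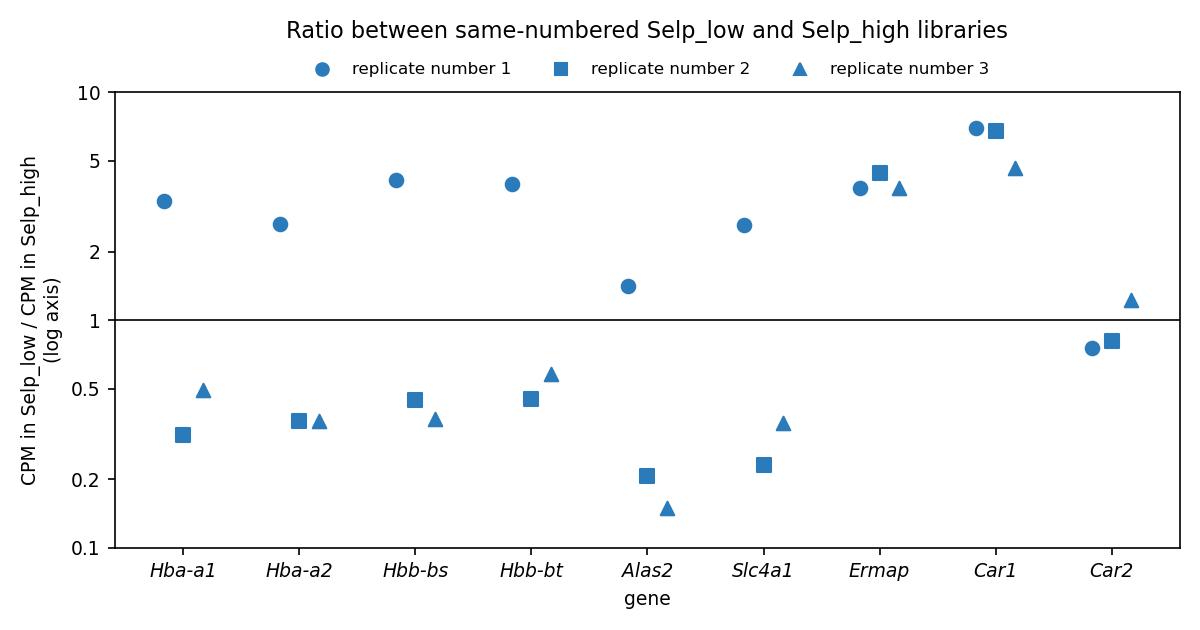
Ratio of the CPM in a Selp_low library to that in the Selp_high library of the same replicate number (vertical axis, log scale) for each of the 9 genes, 1 point per number. Ermap (3.80 to 4.44) and Car1 (4.67 to 6.98) lie above 1 in every pair, the globins, Alas2 and Slc4a1 lie above 1 for replicate 1 and below 1 for replicates 2 and 3, and Car2 (0.755 to 1.22) stays near 1.

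The fold changes of the globins therefore rested on 1 library. In Selp_high over Selp_low paHSCs the log2 fold change was -0.51 for Hba-a1 (95% confidence interval -2.59 to 1.58), -0.50 for Hba-a2, -0.73 for Hbb-bs and -0.54 for Hbb-bt, each with an edgeR adjusted p of at least 0.778. Without Selp_low replicate 1 the direction turned, to 1.27, 1.78, 1.35 and 0.78 in the same order. With the replicate block they also changed sign, to 0.39, 0.56, 0.28 and 0.04. DESeq2 gave no adjusted p for Hba-a2 and Hbb-bs with all libraries, because their Cook's distances in Selp_low replicate 1 (23.3 and 21.04) exceeded its limit of 18, and without that library it called Hba-a2 higher in Selp_high paHSCs (adjusted p = 0.0354). In that run DESeq2 called 457 of 15638 genes. Alas2 had a log2 fold change of 0.78 (95% confidence interval -1.36 to 2.93, edgeR adjusted p = 0.756), which became 2.58 without Selp_low replicate 1 by DESeq2 (adjusted p = 0.00761). The value for Slc4a1 was 0.63 (95% confidence interval -1.58 to 2.84, edgeR adjusted p = 0.815).

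Car2, a cytosolic carbonic anhydrase of high activity (chr3:14951333-14965830), had the highest median FPKM of the set and the smallest log2 fold change between the fractions. It measured 3202, 1580 and 1702 CPM in yHSCs, 2263, 939 and 2191 CPM in Selp_low paHSCs, and 2998, 1162 and 1792 CPM in Selp_high paHSCs. The log2 fold change between the fractions was 0.13 (95% confidence interval -1.08 to 1.35, edgeR adjusted p = 0.936), so a change of more than 2.55-fold in either direction lies outside the interval. Car1 and Car2 are separated by 77904 bases on chromosome 3, and their levels did not follow each other across the libraries.

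**Figure D3:**
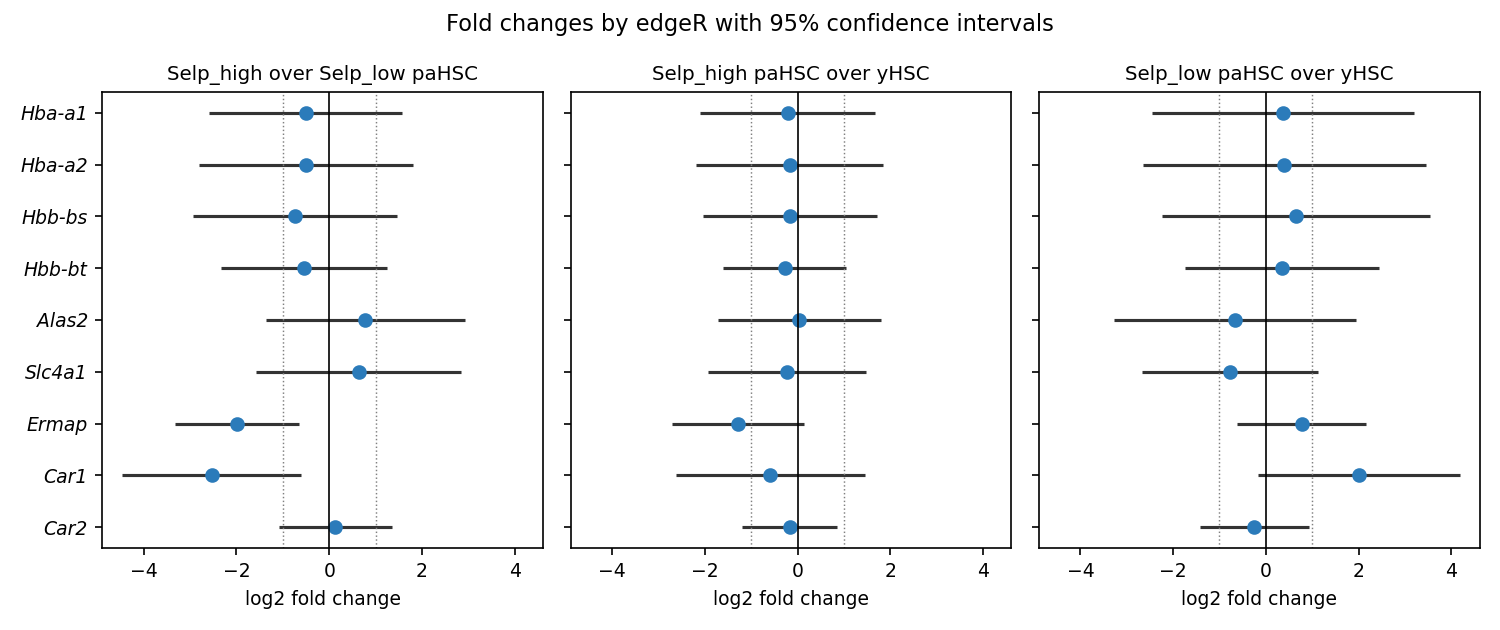
Log2 fold changes (points) with 95% confidence intervals (lines) by edgeR for the 9 genes in each comparison, 3 libraries against 3, with dotted lines at the threshold of 1 in either direction. Only the intervals of Ermap and Car1 between the paHSC fractions exclude 0, and the intervals of the globins include 0 in all comparisons.

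Selp_high paHSCs and yHSCs differed in sort fraction as well as age. No gene of the set separated these groups. The Selp_high libraries lay within the range of the yHSC libraries for Hba-a1, Hba-a2, Hbb-bs, Hbb-bt, Alas2 and, in part, for the others. Ermap lay farthest from 0, at a log2 fold change of -1.29 (95% confidence interval -2.71 to 0.13, edgeR adjusted p = 0.734). Car1 followed at -0.59, and the other 7 genes stayed between -0.27 and 0.04, all with adjusted p values of 0.998 or more. edgeR called 0.165% of all genes tested (33 of 20017) and none of these 9, none of which reached an unadjusted p of 0.05. DESeq2 called 2.78% of all genes and again none of the 9, and the groups did not overlap for 13.8% of all genes and for none of the 9. Without yHSC replicate 1 the log2 fold changes of Hba-a1, Hba-a2 and Hbb-bs turned to 1.38, 1.44 and 1.38.

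Selp_low paHSCs overlapped yHSCs for all 9 genes, and Car1 lay farthest from 0 in log2 fold change without passing the test. The log2 fold change of Car1 was 2.01 (standard error 0.913, 95% confidence interval -0.16 to 4.18), with an edgeR adjusted p of 0.474 and a DESeq2 adjusted p of 0.281. Without yHSC replicate 1, the highest yHSC library for this gene, it was 3.43 by DESeq2 (adjusted p = 2.51e-04), and with Selp_low replicate 1 as the only library of its group it was 0.21. DESeq2 without yHSC replicate 1 called 2510 of 27862 genes. Ermap was at 0.77 and Slc4a1 at -0.77, and the globins were between 0.34 and 0.64 with intervals of -2.65 to 3.54 at their widest. edgeR called 0% of all genes tested (0 of 20437, with 2306 at an unadjusted p under 0.05, none of them in the set), DESeq2 2.95% and none of the 9. The groups did not overlap for 16.3% of all genes and for none of the 9. Both comparisons use the same yHSC libraries, and the median log2 fold changes of the 9 genes, -0.21 and 0.36, stood beside medians of -0.03 and 0.08 over all genes tested.

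Across the 9 libraries 2 patterns stood out, and Slc4a1 and Car2 belonged clearly to neither. The 4 globins followed each other, with Pearson's r of log2 CPM between 0.855 and 0.986, and Alas2 followed them with r between 0.853 and 0.889. Slc4a1 did so less closely (0.439 to 0.73), as did Car2 (0.571 to 0.655). Car1 and Ermap had r = 0.856 with each other (Spearman's rho 0.833) and between -0.131 and 0.149 with the globins. These values describe 9 libraries of 3 groups and share the scaling of each library. The r of Car1 with Ermap also includes the difference between the fractions that both genes show.

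**Figure D4:**
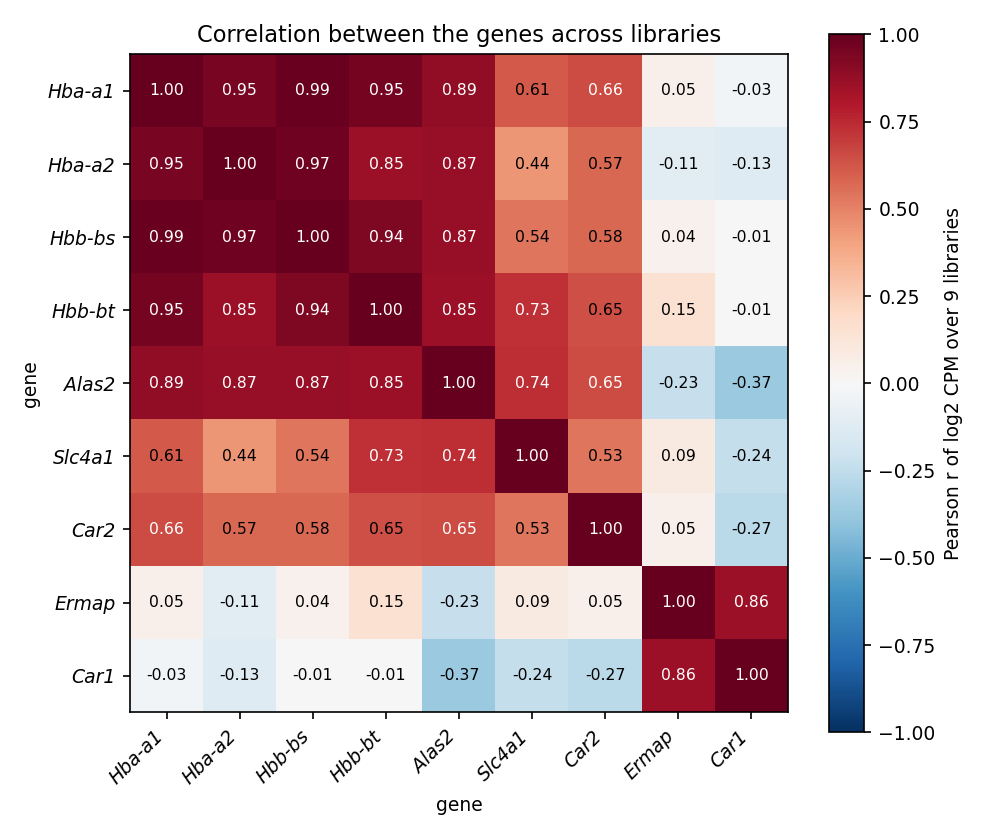
Pearson's r of log2 CPM over the 9 libraries for each pair of genes, from -1 (blue) to 1 (red). The globins and Alas2 form 1 block with r of 0.853 or more, Ermap and Car1 form another with r = 0.856, and r between the blocks lies between -0.368 and 0.149.

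The genes most like Hbb-bs and Car2 were sought among 14333 protein-coding genes tested in all comparisons. Over 9 libraries the highest r among so many genes are picked values, and they were not tested. For Hbb-bs they were Apol11b (r = 0.923), Apol11a (0.876), Cfap77 (0.825), Kcp (0.808) and Nova2 (0.807), all of low level with means of 0.496 to 5.45 CPM. For Car2 they were Fech (0.939), Iftap (0.937), Ubac1 (0.928), Ube2l6 (0.911) and Cryab (0.907). Fech encodes the last enzyme of heme synthesis. The same search for Car1, added after its values were seen, gave the replication-dependent histone genes H2ac11 (0.97), H2ac23 (0.969) and H2ac24 (0.952), with Bbln (0.954) and Slc25a38 (0.945), the mitochondrial glycine carrier that feeds heme synthesis.

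The 250 bases before the start of transcription are shown for 4 genes, Hba-a1, Hbb-bs and Alas2 from the first pattern and Ermap from the second. They come from RefSeq's annotation of GRCm38.p6, an earlier build than that of the count table (mm39), and an entry was found for 6 of the 9 genes, the exceptions being Slc4a1, Car1 and Car2. Capitals mark AGATAA or TGATAA (bound by GATA factors), CCACACCC (the CACCC box bound by KLF factors) and TATAAA, searched on both strands and written as their reverse complement where they lie on the other strand. None of these motifs overlaps another in these windows.
Hba-a1 (chr11:32283422-32283671, plus strand): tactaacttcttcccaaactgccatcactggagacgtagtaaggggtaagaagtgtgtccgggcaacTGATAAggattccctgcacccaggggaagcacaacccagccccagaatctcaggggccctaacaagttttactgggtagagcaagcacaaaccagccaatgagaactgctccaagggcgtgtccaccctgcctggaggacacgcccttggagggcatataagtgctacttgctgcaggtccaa
Hbb-bs (chr7:103827929-103828178, minus strand): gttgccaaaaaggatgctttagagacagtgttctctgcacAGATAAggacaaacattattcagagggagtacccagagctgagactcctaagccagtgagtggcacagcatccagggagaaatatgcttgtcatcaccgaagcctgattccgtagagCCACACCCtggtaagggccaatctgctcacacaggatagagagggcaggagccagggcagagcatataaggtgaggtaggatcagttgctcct
Alas2 (chrX:150547167-150547416, plus strand): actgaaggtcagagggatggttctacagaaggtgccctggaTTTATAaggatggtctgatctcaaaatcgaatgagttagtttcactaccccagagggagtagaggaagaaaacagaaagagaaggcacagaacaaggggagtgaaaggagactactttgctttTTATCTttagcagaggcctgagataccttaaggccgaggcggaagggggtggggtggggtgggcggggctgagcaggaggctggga
Ermap (chr4:119189996-119190245, minus strand): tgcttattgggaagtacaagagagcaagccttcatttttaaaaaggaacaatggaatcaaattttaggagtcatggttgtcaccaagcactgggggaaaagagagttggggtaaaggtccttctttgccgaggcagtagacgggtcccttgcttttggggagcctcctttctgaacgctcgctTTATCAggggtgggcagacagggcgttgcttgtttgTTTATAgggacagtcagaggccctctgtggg

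A GATA motif was found in 5 of the 6 windows (Hba-a1, Hba-a2, Hbb-bs, Alas2 and Ermap), against 16.6% of 32851 promoters, so it occurred in both patterns. The CACCC box was found in Hbb-bs alone (3.2% of all promoters), and TATAAA in Hbb-bt, Alas2 and Ermap (12.4%). The windows of Hba-a1 and Hba-a2 were identical over 247 bases. A match of letters describes the window and does not show that a factor binds there.

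Genes that act beside the set were counted from lists of the pathway. By edgeR, 0 of the 81 genes tested in these 8 lists were DEGs between the fractions. An unadjusted edgeR p under 0.05 was found for 15 of the 81, a share above the 12.5% of all genes tested. DESeq2 called 3, beside 2.28% of all genes. Against yHSCs edgeR also called 0. For the Selp_high fraction 14 of 80 had an unadjusted p under 0.05 (7.59% of all genes) and DESeq2 called 3 (2.78% of all genes). For the Selp_low fraction these numbers were 6 of 81 (11.3% of all genes) and 2 (2.95% of all genes). Heme synthesis, with 14 genes tested, had 4 genes higher and 10 lower in Selp_high than in Selp_low paHSCs and a median log2 fold change of -0.16, beside -0.11 over all genes. Among its most abundant genes were Fech (0.19) and Tmem14c, a porphyrin transporter (-0.79), with adjusted p values of at least 0.514. In the comparisons with yHSCs the medians were -0.05 for the Selp_high and 0.21 for the Selp_low fraction. Of the other globin genes only Hbq1b was high enough to be tested, and the 8 found in the table summed to 0.659 to 7.68 CPM.

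Genes that move or break down heme were split. Of 9 tested, 6 were higher and 3 lower in Selp_high than in Selp_low paHSCs (median 0.31). An unadjusted edgeR p under 0.05 was found for 5 of the 9, against 12.5% of all genes tested. None of them reached the adjusted threshold by either tool. The same 5 did not overlap between the fractions, against 20.9% of all genes tested. The most abundant were Slc48a1, an exporter of heme from lysosomes (0.82), Abcg2, which exports porphyrins and marks stem cells (1.32), and Blvrb, a biliverdin reductase (-1.14). Against yHSCs, Hmox1, the inducible heme oxygenase, was called lower in Selp_low paHSCs by DESeq2 (log2 fold change -2.06 by edgeR, DESeq2 adjusted p = 0.0240), at 20.1, 23.5 and 15.2 CPM against 29.7, 95.9 and 134 CPM.

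The membrane list had 10 genes higher and 9 lower of 19 tested, with a median of 0.00. Add1 (0.48), Gypc (0.86) and Epb41 (0.87), which belong to the cytoskeleton and its anchors, were its most abundant genes. DESeq2 called Bcam, the Lutheran adhesion protein, higher in Selp_high paHSCs (log2 fold change 1.85, adjusted p = 0.00916), at 18.1, 20.7 and 16.9 CPM against 6.42, 3.62 and 5.28 CPM.

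Among 11 erythroid transcription factors and Epor, 9 were higher and 2 lower in Selp_high than in Selp_low paHSCs, with a median of 0.25. The most abundant, Lmo2 (0.77), Nfe2 (0.86) and Gfi1b (0.75), are shared with stem cells and megakaryocytes. Klf1, the factor that drives adult erythroid genes, went against them. It measured 64.0, 95.7 and 118 CPM in Selp_low paHSCs and 23.1, 20.2 and 38.1 CPM in Selp_high paHSCs, without overlap between the fractions (log2 fold change -1.78, edgeR adjusted p = 0.338, DESeq2 adjusted p = 0.0191). Lmo2, Nfe2 and Gfi1b did not overlap either, with the higher values in Selp_high paHSCs. In this list 5 of the 11 genes did not overlap, against 20.9% of all genes tested. Across the 9 libraries Klf1 had r = 0.912 with Ermap and 0.859 with Car1, and between 0.171 and 0.283 with the globins. Klf1 was named after its values were seen, and its r with Ermap and Car1 include the difference between the fractions that these genes share. Gata1, the central erythroid factor, had a log2 fold change of 0.14 (edgeR adjusted p = 0.957). Against yHSCs, DESeq2 called Gfi1b higher in Selp_high paHSCs (log2 fold change 1.3 by edgeR, DESeq2 adjusted p = 0.0311).

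**Figure D5:**
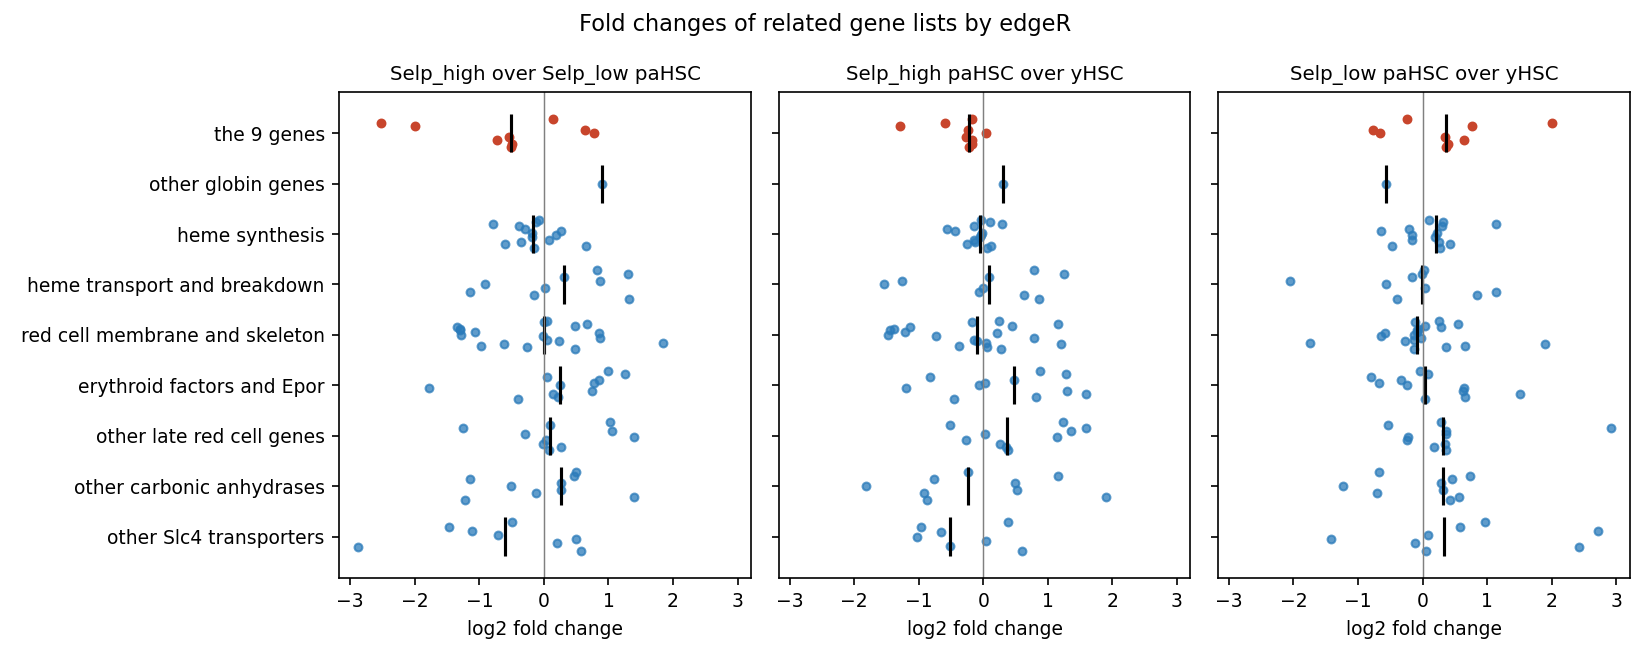
Log2 fold changes by edgeR (horizontal axis) of the 9 genes (red) and of the tested genes of 8 related lists (blue), 1 point per gene with a black bar at each median, in the 3 comparisons. The medians of the lists with more than 1 tested gene lie between -0.61 and 0.47, and single genes such as Car1, Ermap, Klf1 and Slc4a11 stand apart from them.

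The 10 tested genes of the late red cell list had a median of 0.09 between the fractions. They were led in level by Prdx2 (-0.29), Mkrn1 (1.40) and Bnip3l (0.08). DESeq2 called only Tent5c, a poly(A) polymerase, which was higher in Selp_low paHSCs than in yHSCs (2.92 by edgeR, DESeq2 adjusted p = 0.0225). The lowest, median and highest Selp_low libraries for Tent5c were at 16.71, 18.94 and 112.8 CPM, against at most 8.766 CPM in yHSCs. These groups did not overlap, but the size of the change rested mainly on 1 Selp_low library. The part of other cells in the Tent5c level was not tested. By group mean no other carbonic anhydrase came near Car1 or Car2. In Selp_high replicate 1, however, Car1 measured 33.9 CPM, below the 57.3 CPM to which the 14 others summed. The 14 summed to 33.5 to 62.5 CPM, and Car9 (0.49), Car3 (-0.51) and Car13 (0.26) led the 9 tested between the fractions. Against yHSCs, DESeq2 called Car3 lower (-1.81 by edgeR, DESeq2 adjusted p = 0.0252) and Car11 higher (1.90, DESeq2 adjusted p = 0.0423) in Selp_high paHSCs. The Slc4 transporters beside Slc4a1 summed to 22.1 to 53.8 CPM with a median of -0.61 between the fractions. Their most abundant genes were Slc4a2 (0.20), Slc4a7 (-1.47) and Slc4a3 (0.49), and DESeq2 called Slc4a11, a transporter of low level, lower in Selp_high paHSCs (-2.88 by edgeR, DESeq2 adjusted p = 0.00643).

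The summed markers of HSCs and of T and NK cells did not overlap between the fractions, whereas the sums of the other marker lists did. Summed HSC markers were 2174 to 3121 CPM in Selp_high and 818.9 to 1505 CPM in Selp_low paHSCs, and summed markers of T and NK cells were 126 to 152.5 and 313 to 927 CPM. Of the 10 HSC genes 9 were higher in Selp_high paHSCs (median log2 fold change 1.51, 3 called by DESeq2), as were 6 of 6 tested megakaryocyte and platelet genes (2.06, 2 called) and 8 of 10 monocyte and macrophage genes (1.64, 1 called). The highest sum of the monocyte and macrophage list was nevertheless in Selp_low replicate 3, at 2296 CPM. Lower in Selp_high paHSCs were 9 of 9 B and plasma cell genes (-4.12, 4 called), 5 of 6 T and NK cell genes (-4.21, 4 called) and 8 of 10 neutrophil genes (-1.85, 0 called). Of the mast cell, basophil and eosinophil genes 4 were higher and 2 lower (0.23, 0 called). Over all genes tested the median was -0.11 by edgeR, and DESeq2 called 2.28% of all genes. By edgeR 0 genes of these lists were DEGs between the fractions, and at most 1 gene of a list was at 0 in a library. In Selp_low replicate 2 Jchain, an immunoglobulin joining chain gene named after its values were seen, gave 98260 of the 105700 CPM of the B and plasma cell list. The neutrophil sum was 64900 CPM in yHSC replicate 1, against 13210 and 18940 CPM in the other yHSC libraries, and 5084, 546.6 and 213200 CPM in Selp_low replicates 1 to 3. The part of these cells in the levels of Car1, Ermap, Klf1 and the globins was not tested.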

How the data were processed

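RNA-seq of 9 libraries, 3 per group, was analysed from the values the authors deposited, which are raw read counts per gene without normalization, beside a gene length. Reads had been trimmed with fastp, aligned with HISAT2 (v2.2.1) to mm39 per the submitters' processing notes, and counted with featureCounts (v2.0.6). The sources used here give neither the strand setting nor the treatment of multimapping reads, so near-identical globin copies and antisense overlaps cannot be separated. Since the sources do not say how many animals each replicate held, p-values and intervals measure the spread between these libraries.

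Counts were tested in R 4.3.3 with edgeR 4.0.16 (TMM, filterByExpr, quasi-likelihood test with the legacy setting, each pair of groups alone, Benjamini-Hochberg adjustment over all genes tested). Genes passing both thresholds of the study, 0.05 for the adjusted p and 1 for the size of the log2 fold change, were taken as DEGs. DESeq2 1.42.0, the study's tool, with default settings and limma 3.58.1 (voom with quality weights) served as alternatives, as did other scaling, filters and dispersion settings, summed globin copies, and each library left out. For correlations 2 was added as the prior count before log2 CPM were taken. FPKM divided TMM-scaled CPM by the authors' gene length. Python 3.11.15 and matplotlib 3.10.9 were used for figures. The steps were tested on simulated data.

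Deviations from the group means over all genes were correlated to check whether libraries with equal replicate numbers are paired. Between the paHSC fractions r was 0.178, 0.276 and 0.303 for numbers 1 to 3, all above the 0.1 set as the minimum for pairing. With yHSCs, from mice of another age, it was between -0.417 and 0.092. Values as large in size thus arose between libraries that cannot share mice. The labels do not say whether same-numbered fractions share mice, so pairing is not shown. The genes of the set, the pathway lists and the marker lists were chosen with earlier results of these data known. Named were every gene of the set with its value in all libraries, the 3 most abundant tested genes of each pathway list, every gene of these lists that edgeR called, and the 5 genes most like Hbb-bs and Car2, except 1 gene that is not reported here. Genes that only DESeq2 called, with Gata1, Jchain, Klf1 and the genes most like Car1, were named after their values were seen. The DESeq2 fits with the replicate block or with a library left out, Selp_low replicate 1 alone, and library totals without scaling factors were added after the data were seen. All columns with sample values were used.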

Additional observations from a re-analysis of the deposited data

How the results depend on the processing

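Of 718 recomputed log2 fold changes of the 9 genes, 92 changed sign, 61 of them with 1 library left out, and 10 passed the threshold. No gene was called in Selp_high paHSCs over yHSCs under any alternative run. Between the fractions the number called was 0 under every edgeR and voom alternative, 1 by DESeq2, 2 by DESeq2 with the replicate block and 0 to 4 with 1 library left out, the 4 being Car1, Ermap, Alas2 and Hba-a2 by DESeq2 without Selp_low replicate 1. Of all genes DESeq2 called 589 of 25807, with the block 2151 of 22765, and without Selp_low replicate 1 457 of 15638. For Selp_low paHSCs over yHSCs the number called among the 9 was 0 to 1 with 1 library left out. Car1 and Ermap kept their direction between the fractions in all 27 alternatives each, from -2.99 to -0.81 and from -2.58 to -1.07, with adjusted p values from 1.73e-18 and 1.47e-09 up to 1.

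The replicate block turned the globins between the fractions (Hba-a1, Hba-a2, Hbb-bs, Hbb-bt) to 0.39, 0.56, 0.28 and 0.04 by edgeR. By DESeq2 it turned them to 0.38, 0.56, 0.27 and 0.03. Between Selp_high paHSCs and yHSCs the numbers do not pair the libraries. There the block turned Hba-a1, Hba-a2 and Hbb-bs to 0.52, 0.61 and 0.52 by edgeR and 0.50, 0.60 and 0.50 by DESeq2. With the block edgeR called 9 of all 20370 genes tested between the fractions and DESeq2 2151 of 22765. Keeping every gene with a count raised the DEGs by edgeR to 193, 472 and 365 for Selp_high over Selp_low paHSCs, Selp_high paHSCs over yHSCs and Selp_low paHSCs over yHSCs, none of the 9 among them. Voom with quality weights gave 0.09 for Hba-a1 between the fractions, 1.58, 1.59, 1.62, 0.75, 0.50 and 0.79 for Hba-a1, Hba-a2, Hbb-bs, Hbb-bt, Slc4a1 and Car1 in Selp_high paHSCs over yHSCs, and 0.48 for Alas2 in Selp_low paHSCs over yHSCs. Alas2 in Selp_high paHSCs over yHSCs was -0.03 with RLE scaling, -0.10 with upper-quartile scaling, -0.03 by DESeq2 and 0.00 by library totals alone. With Selp_low replicate 1 alone, Alas2, Slc4a1 and Car2 between the fractions were -0.47, -0.10 and -0.18, and Alas2 and Ermap over yHSCs 0.50 and -0.25. The cause was not tested.

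With 1 library left out, by edgeR or DESeq2, log2 fold changes between the fractions ran from -1.03 to 1.27 for Hba-a1, -0.99 to 1.78 for Hba-a2, -1.25 to 1.35 for Hbb-bs, -1.03 to 0.78 for Hbb-bt, -0.58 to 1.24 for Slc4a1 and -0.29 to 0.44 for Car2. In Selp_high paHSCs over yHSCs they ran from -0.79 to 1.39, -0.77 to 1.44, -0.74 to 1.39 and -0.71 to 0.63 for the globins in that order, -0.50 to 1.23 for Alas2, -1.45 to 0.17 for Slc4a1, -1.07 to 0.87 for Car1 and -0.64 to 0.30 for Car2. In Selp_low paHSCs over yHSCs they ran from -1.48 to 1.93, -1.95 to 1.96, -1.51 to 2.15 and -1.03 to 1.20 for the globins, -2.55 to 0.48 for Alas2 and -0.51 to 0.19 for Car2. By library totals alone genes as a whole had a median log2 fold change of 0.37 between the fractions, against -0.11 with TMM factors, and those of Car1 and Ermap were -1.84 and -1.48 (edgeR adjusted p = 0.346 and 0.362). The lowest count of any of the 9 genes in a library was 44, and precision was limited by 3 libraries per group.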
